A study of Homo sapiens with 4 samples.

Results

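The genes described here are 9 S100 genes (S100A2, S100A4, S100A6, S100A10, S100A11, S100A13, S100A14, S100A16 and S100P) and CALB2, the gene of calretinin. They were selected by symbol as EF-hand calcium-binding genes, and partly on their measured difference between the groups, since the set was proposed around the fall of CALB2. Their values in that contrast are therefore given as a description. All 10 symbols matched 1 gene each of the 57773 listed, and 9 of them were among the 16090 genes with enough counts for a test. S100P was not. Only CALB2 fell by a large factor. The S100 genes differed by less and in both directions, and S100A14 differed most, at a very low level. The cells were MIA-PaCa2, an established line from a human pancreatic carcinoma, with 2 libraries in each group. Untreated cells were compared with cells made resistant to AMG510 (sotorasib), a targeted cancer drug, by growth in rising doses over 2 months, up to 5 µM. The labels do not say whether the drug was still present at harvest, and 1 tag of resistant replicate 2 reads AMG511 where its title has AMG510. Both groups derive from a single cell line, and nothing says that the replicates were cultured apart, so p-values measure only the spread between these libraries.

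EF-hand proteins bind calcium through a helix-loop-helix motif. S100 proteins are small EF-hand proteins, mostly dimers, which change shape when calcium binds and then dock to partner proteins such as annexins, myosin or cytoskeletal adaptors. Most S100 genes lie side by side on the long arm of chromosome 1, and several are known for high levels in pancreatic cancer. Calretinin belongs to another branch, the calbindin family of calcium buffers, and is used in pathology as a marker of mesothelium and of some neurons.

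The sequences that lie before the starts of these genes are shown because the genes are neighbours and yet differed in opposite directions. RefSeq promoter windows (build GRCh38.p14) matched 9 of the 10 members, all but CALB2, with 13 windows in all. The lines below give the 250 bases before a start, 5′ to 3′ on the gene's strand, for the members S100A6, S100A4 and S100A16 (lower in resistant libraries), S100A2 and S100A13 (higher), and for S100A5, a neighbouring S100 gene outside the set that fell. Capitals mark matches on either strand to 4 motifs, chosen after the windows had been seen. TGACTCA is the site known for the transcription factor AP-1. TATAAA is the TATA box near many starts. The letters GGGCGG are the core of sites for the factor Sp1. The letters GGAAGT are a core for factors of the ETS family.
S100A6, chr1:153535992-153536241, minus strand: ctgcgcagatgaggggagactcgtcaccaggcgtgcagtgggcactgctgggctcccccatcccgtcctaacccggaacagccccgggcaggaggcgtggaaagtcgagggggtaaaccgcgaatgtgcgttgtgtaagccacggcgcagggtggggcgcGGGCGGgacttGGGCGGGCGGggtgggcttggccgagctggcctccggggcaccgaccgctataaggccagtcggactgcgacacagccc
S100A4, chr1:153545807-153546056, minus strand: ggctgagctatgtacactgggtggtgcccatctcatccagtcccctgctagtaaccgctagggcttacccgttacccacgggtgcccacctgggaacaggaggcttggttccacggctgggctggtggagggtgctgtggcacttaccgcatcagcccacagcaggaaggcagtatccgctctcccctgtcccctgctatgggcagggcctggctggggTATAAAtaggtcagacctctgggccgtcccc
S100A16, chr1:153609356-153609605, minus strand: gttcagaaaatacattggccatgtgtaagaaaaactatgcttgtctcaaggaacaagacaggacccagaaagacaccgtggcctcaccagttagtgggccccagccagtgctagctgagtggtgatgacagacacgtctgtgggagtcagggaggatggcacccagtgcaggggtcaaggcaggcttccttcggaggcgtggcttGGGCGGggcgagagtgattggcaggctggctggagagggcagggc
S100A2, chr1:153565845-153566094, minus strand: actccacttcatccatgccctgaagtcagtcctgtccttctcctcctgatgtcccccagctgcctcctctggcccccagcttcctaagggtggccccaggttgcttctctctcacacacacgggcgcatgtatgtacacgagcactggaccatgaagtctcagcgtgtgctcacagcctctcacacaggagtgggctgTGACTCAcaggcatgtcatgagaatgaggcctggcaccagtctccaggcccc
S100A13, chr1:153627506-153627755, minus strand: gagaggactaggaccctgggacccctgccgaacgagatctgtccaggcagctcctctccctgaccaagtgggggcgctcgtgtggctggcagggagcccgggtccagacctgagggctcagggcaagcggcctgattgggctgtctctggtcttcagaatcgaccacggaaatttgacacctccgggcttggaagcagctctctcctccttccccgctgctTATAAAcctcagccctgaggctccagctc
S100A5, chr1:153540935-153541184, minus strand: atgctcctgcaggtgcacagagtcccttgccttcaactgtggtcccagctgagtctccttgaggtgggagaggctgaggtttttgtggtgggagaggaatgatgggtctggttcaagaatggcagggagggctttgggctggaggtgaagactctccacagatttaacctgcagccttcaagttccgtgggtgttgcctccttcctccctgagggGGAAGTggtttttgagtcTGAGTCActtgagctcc

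The S100A6 window held 3 GGGCGG matches, at 90, 79 and 75 bases before the start, the last pair of which overlap. The printed windows of S100A4 and S100A13 each held TATAAA, at 31 and 29 bases before the start, and that of S100A16 held GGGCGG at 45. TGACTCA was found in the printed S100A2 window at 52 bases and, read on the other strand, in that of S100A5 at 17 bases, where GGAAGT lay at 35. S100A2, S100A16 and S100A5 had 2 windows each and S100A13 had 3, and of each only 1 with a match is printed. The second windows of S100A2, S100A16 and S100A5 held none of the 4 motifs. Of the other S100A13 windows 1 held the Sp1 and ETS cores, at 138 and 234 bases, and 1 held none. Of the 13 windows of members 5 held the Sp1 core, 3 the TATA box, 2 the ETS core and 1 the AP-1 site. Of all 35116 windows in the table, 42.6% held the Sp1 core, 10.7% the TATA box, 19.5% the ETS core and 4.2% the AP-1 site. A match describes these letters only, and binding was not measured.

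Levels are given as CPM, read counts scaled to a common effective library size. Where no read was counted, the limit is 3 counts, or 0.0801 to 0.104 CPM by library, which covers counting error only. Pancreatic epithelial markers were checked against the label. KRT8, KRT18, KRT19 and SOX9 were well expressed in all 4 libraries, whereas KRT7 (0.148 to 0.401 CPM), CDH1 (0.622 to 1.21 CPM) and EPCAM (1.33 to 2.09 CPM) were low. The summed level of the 7 markers was 5794 and 4092 CPM in untreated libraries and 2192 and 2728 CPM in resistant ones, and none was at 0. Of 12 markers of immune, endothelial, neuronal and stromal cells 7 were tested, and 1 rose, 2 fell and 4 did not pass, where 34% of all tested genes passed. PDGFRB, a stromal growth factor receptor, rose from 2 and 7 counts to 147 and 73 (log2 fold change 4.86, SE 0.70, adjusted p = 7.69e-04 in edgeR's quasi-likelihood test). LYZ, lysozyme, fell from 4.55 and 10.1 CPM to 0.414 and 0.237 CPM (−4.49, SE 0.54, adjusted p = 2.82e-04). SNAP25, a protein of neuronal synapses, fell from 1.06 and 2.40 CPM to 0.138 and 0.266 CPM (−3.06, SE 0.65, adjusted p = 0.00540, and 0.0522 without untreated replicate 2). Those that did not pass were TUBB3 (157 to 251 CPM), CD68 (9.39 to 33.7 CPM), CDH5 (0.711 to 8.12 CPM) and VWF (0.266 to 0.552 CPM). PTPRC had 2 to 5 counts a library, LUM 1 to 7, DCN 2, CD3E 0 or 1, and RBFOX3 0. The summed level of the 12 was 217 and 188 CPM in untreated and 297 and 234 CPM in resistant libraries.

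CALB2 (ENSG00000172137, chromosome 16) was the member with the largest difference. Its level was 236 and 265 CPM in the untreated libraries and 10.6 and 5.51 CPM in the resistant ones. Every resistant library lay far below every untreated one, and the group means were 250.7 ± 20.2 CPM and 8.03 ± 3.57 CPM (SD, n = 2). The log2 fold change was −4.97 (SE 0.31), or 31.3-fold lower, and only 64 of the 16090 tested genes had a lower log2 fold change. The size depends on the 2 resistant libraries, which differed 1.92-fold and held 492 counts together, against 18651 in the untreated ones. It became −5.49 when resistant replicate 1 was left out and −4.57 when resistant replicate 2 was. In bulk libraries such as these, fewer cells with a transcript and less of it per cell cannot be told apart. CALB1 and SCGN, the nearest calbindin relatives of CALB2, had 2 counts in total and 0 counts in the 4 libraries.

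**Figure D1:**
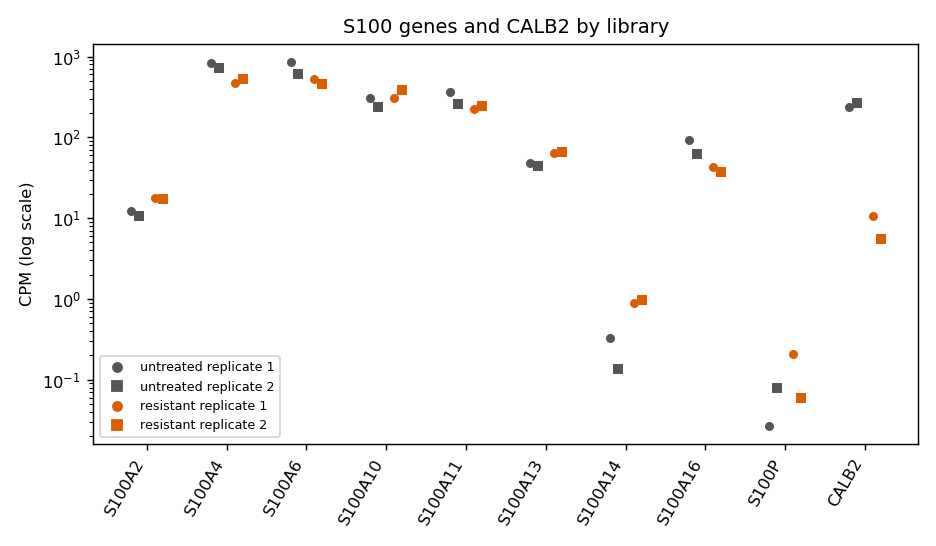
Level of each member in each library (CPM, log axis), with circles for replicate 1, squares for replicate 2, grey for untreated and orange for resistant cells. CALB2 drops from between 236 and 265 CPM to between 5.51 and 10.6 CPM, while most S100 genes differ by less than a factor of 2, in either direction.

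Some markers of mesothelium, the lining where calretinin is used in diagnosis, also fell. Of 8 listed markers 4 had enough counts for a test, and 3 fell, 0 rose and 1 did not pass, where 17.4% of all tested genes fell. Markers of other cells fell as well, among them the neuronal SNAP25, LYZ and the epithelial KRT8 (log2 fold change −1.23, adjusted p = 0.00268) and KRT18 (−0.88, adjusted p = 0.00692, and 0.0825 without untreated replicate 1 or 0.0736 without resistant replicate 1). WT1, a transcription factor of mesothelium and kidney, had 6.93 and 11.9 CPM in untreated and 0.828 and 1.45 CPM in resistant libraries. It fell by 3.03 on the log2 scale (SE 0.42, adjusted p = 5.77e-04 in edgeR's quasi-likelihood test). UPK3B, a uroplakin also made by mesothelium, went from 17.4 and 31.7 CPM to 7.21 and 6.16 CPM (log2 fold change −1.88, SE 0.30, adjusted p = 0.00140). Expected counts of UPK3B were not all whole (643.7, 1188.14, 209.04 and 208), nor were those of KRT8 and KRT18. Values of these genes are uncertain to the extent that reads were divided between genes. BNC1, the transcription factor basonuclin, was low but separated the groups, at 0.948 and 1.5 CPM against 0.069 and 0.148 CPM (log2 fold change −3.42, SE 0.68, adjusted p = 0.00376, and −4.08 without resistant replicate 2). MSLN, mesothelin, had groups that overlapped, with 0.271 and 1.04 CPM in untreated and 0.621 and 0.0888 CPM in resistant libraries (adjusted p = 0.476). PRG4 had 0 counts in every library, and UPK1B, LRRN4 and ITLN1 had at most 5. The summed level of the 8 markers was 25.7 and 46.3 CPM in untreated and 8.80 and 7.93 CPM in resistant libraries. The part of any of these markers in the difference in CALB2 was not tested.

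**Figure D2:**
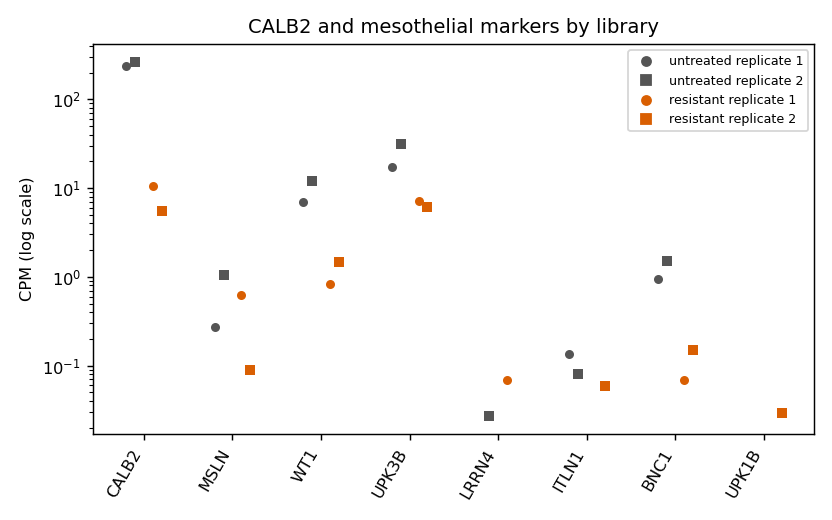
CALB2 and the mesothelial markers with a count above 0 in at least 1 library (CPM, log axis; a library at 0 has no point, symbols as in the plot of the members). WT1, UPK3B and BNC1 lie lower in both resistant libraries, whereas the values of MSLN from the groups overlap.

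S100A4, S100A6, S100A16 and S100A11 had lower levels in the resistant libraries, by less than a factor of 2 each. S100A4 (ENSG00000196154), which binds nonmuscle myosin and is known for its link to cell motility and metastasis, had 821 and 723 CPM in untreated and 476 and 534 CPM in resistant libraries. The groups did not overlap, and the log2 fold change was −0.61 (SE 0.17). S100A6 (ENSG00000197956), or calcyclin, a partner of annexin A11 and of CACYBP, had 853 and 613 CPM against 522 and 457 CPM. Its untreated libraries lay further apart than the lower of them lay from the resistant ones, and the log2 fold change of −0.58 (SE 0.19) became −0.30 without untreated replicate 1. S100A16 (ENSG00000188643) had 93.3 and 61.7 CPM in untreated and 42.8 and 37.6 CPM in resistant libraries. This is a log2 fold change of −0.95 (SE 0.21), the most negative among the S100 members, and it was −0.59 without untreated replicate 1. S100A11 (ENSG00000163191), a partner of annexin A1, had 366 and 256 CPM against 223 and 242 CPM. The gap between its groups was smaller than the spread of the untreated libraries (log2 fold change −0.42, SE 0.19, and −0.11 without untreated replicate 1). It has 3 processed pseudogenes about 92% identical over some 310 bases (91.75, 92.33 and 91.91%), each with at most 0.0345 CPM. Its expected counts were whole numbers (13507, 9574, 6463 and 8179), so no division of reads with these copies was seen.

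S100A13, S100A2 and S100A14 had higher levels in the resistant libraries. S100A13 (ENSG00000189171), which takes part in the release of FGF1 from cells, had 48.2 and 44.2 CPM in untreated and 63.6 and 66.8 CPM in resistant libraries, with no overlap (log2 fold change 0.50, SE 0.16). Its expected counts were not whole (1781.25, 1655.07, 1844.03 and 2256.15), so its value is uncertain to the extent that reads were divided between genes. AL162258.1, a processed transcript on the same strand with at most 1.15 CPM, is 100% identical to it over 319 bases. S100A1 overlaps it on the opposite strand and had whole counts (102, 233, 525 and 325). The strand setting is not given, and the source of the shared reads was not tested. S100A2 (ENSG00000196754), known as a p53 and p63 target in epithelium, had 12.3 and 10.6 CPM against 17.8 and 17.5 CPM. The log2 fold change was 0.62 (SE 0.22). S100A14 (ENSG00000189334) was close to the floor in both groups, with 12 and 5 counts in untreated and 26 and 33 in resistant libraries. Its log2 fold change of 2.02 (SE 0.63) was 2.80 without untreated replicate 1 and 1.51 without untreated replicate 2, so it depends on a handful of reads.

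S100A10 and S100P gave no separation of the groups. S100A10 (ENSG00000197747), which joins annexin A2 in a membrane-bound complex that docks plasminogen, had 303 and 236 CPM in untreated and 303 and 382 CPM in resistant libraries. Untreated replicate 1 and resistant replicate 1 were almost equal, and the log2 fold change was 0.34 (SE 0.19). S100P (ENSG00000163993, chromosome 4), known for high levels in many pancreatic cancers, had 1 and 3 counts in untreated and 6 and 2 in resistant libraries. These are near the limit of 3 counts, and no fold is given.

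In the fit over all genes, 7 of the 9 tested members were called at an adjusted p below 0.05, 4 lower (CALB2, S100A4, S100A6 and S100A16) and 3 higher (S100A2, S100A13 and S100A14). Of all tested genes 34% were called, 17.4% lower and 16.6% higher. The groups did not overlap for 8 of the 9 members, beside 70.9% of all tested genes. The median log2 fold change of the members was −0.42 and that of all tested genes −0.01. Nothing is read from these counts, because this contrast was known when the members were chosen. Fewer members were called when any library was left out, and so were fewer of all tested genes. Such a fit has a single library in 1 group and so less power. The log2 fold changes of all 9 tested members kept their signs. That of CALB2 ranged from −5.49 to −4.57, that of S100A13 from 0.42 to 0.58 and that of S100A11 from −0.66 to −0.11. CALB2 was called in every one of these fits. The other tested members each missed the threshold in at least 1 of them. S100A2, S100A13 and S100A14, called higher with all libraries, missed it in every one.

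Differences between the libraries of 1 group were not used in choosing the members. In the untreated group 8 of the 9 tested members were higher in replicate 1 than in replicate 2, whereas 7933 of the 16090 tested genes were. CALB2 was the exception, at 0.892 times the level of replicate 2. The median absolute log2 ratio between the untreated libraries was 0.36 over the members and 0.24 over all tested genes. S100A16 and S100A11 differed 1.51-fold and 1.43-fold between them. Between the resistant libraries the members differed less, with a median absolute log2 ratio of 0.16 beside 0.25 for all tested genes. Of the 9 members 4 were higher in resistant replicate 1. CALB2 was again apart from the S100 genes, at 1.92 times the level in resistant replicate 1. Each ratio comes from a single pair of libraries and has no test.

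**Figure D3:**
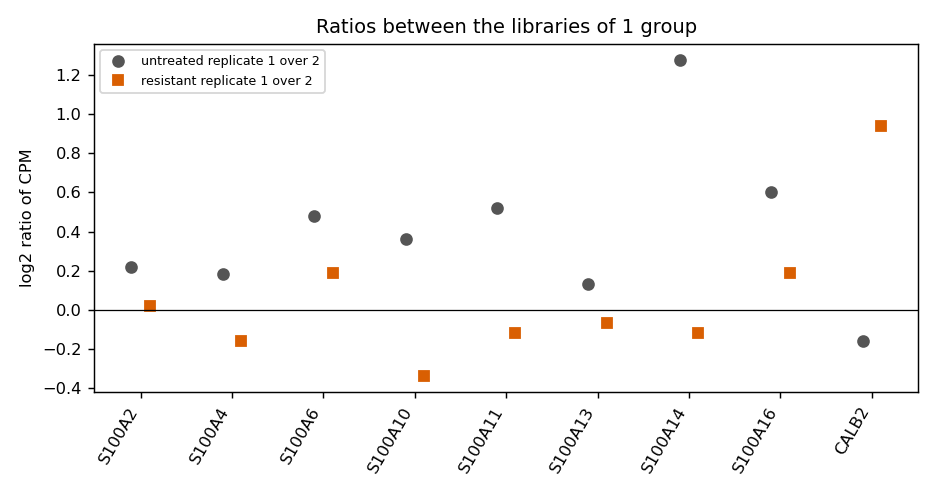
Log2 ratio of CPM of replicate 1 over replicate 2 for the 9 tested members, in grey for untreated and in orange for resistant libraries. Grey points lie above 0 for all members but CALB2, and the orange point of CALB2 stands above those of the S100 genes.

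Levels of different genes were compared as reads per base of the longest annotated transcript, scaled to the same total in each library. In the untreated libraries S100A6 (3087 and 2416) and S100A4 (2650 and 2541) stood first, with ranges that overlapped. S100A11 (1500 and 1142), S100A10 (614 and 522) and CALB2 (393 and 479) followed, and no other neighbours in the order overlapped. S100A16, S100A13 and S100A2 came next at means of 170.5, 53.7 and 29.1, and S100A14 (0.470) and S100P (0.109) closed the order. S100A6 and S100A4 together held 67.5% of the summed per-length level of the 10 members in untreated cells. In the resistant libraries the order of the 9 S100 genes was the same, again with overlap only between S100A6 and S100A4. CALB2 moved from the fifth to the eighth place, at 17.9 and 10.1, below S100A2 at 44.4 and 47.4. The summed per-length level of the 9 S100 genes was 8134 and 6845 in untreated and 5271 and 5917 in resistant libraries.

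The other S100 genes are what remained of the family once the members had been chosen, so they are not independent of that choice. Of 11, 4 had enough counts for a test, and 2 rose, 1 fell and 1 did not pass, where 16.6% of all tested genes rose and 17.4% fell. S100A5 (ENSG00000196420), known from olfactory sensory neurons, had 165 and 166 counts in untreated and 10 and 15 in resistant libraries. At 4.47 and 4.43 CPM against 0.345 and 0.444 CPM it fell 11.1-fold (log2 fold change −3.48, SE 0.44, adjusted p = 3.71e-04), while S100A6 and S100A4 on either side had log2 fold changes of −0.58 and −0.61. S100A9 (ENSG00000163220), a subunit of the neutrophil protein calprotectin, rose from 4 and 1 counts to 27 and 27 (log2 fold change 3.61, SE 0.75, adjusted p = 0.00481, and 4.85 without untreated replicate 1 or 2.94 without untreated replicate 2). S100A8, which pairs with it in calprotectin, had 0 counts in all 4 libraries. S100A1 (ENSG00000160678), best known from heart and skeletal muscle, rose from 2.76 and 6.22 CPM to 18.1 and 9.62 CPM (log2 fold change 1.62, SE 0.44, adjusted p = 0.0233). Leaving out untreated replicate 1 ended that call (1.18, adjusted p = 0.0781). The value went to 2.31 when untreated replicate 2 was dropped and to 1.12 when resistant replicate 1 was. In addition, 151 bases of its transcript lie antisense to S100A13. S100A3, which overlaps S100A4 on the same strand, had 4.60 and 4.97 CPM against 4.97 and 5.68 CPM (adjusted p = 0.731). S100A7A, S100A12 and S100G had 0 counts throughout, and S100A7, S100B and S100Z had at most 4 in a library.

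Genes next to the S100 cluster on chromosome 1 were compared with the members that lie in it. S100A10 and S100A11 lie apart from the other S100 genes of the cluster. Their promoter windows start at 151993860 and 152037005 (build GRCh38.p14), and that of S100A9, the next tested S100 gene, at 153357604. The 10 genes before the cluster are thus nearest to S100A10. The 21 tested neighbours are 10 protein-coding genes on each side and TCHH within. Of these 1 rose, 7 fell and 13 did not pass, a share called of 38.1% beside 38.2% for all tested protein-coding genes of chromosome 1 and 34% for all genes. Of those 1305 chromosome 1 genes 208 rose and 291 fell, and of all tested genes 16.6% rose and 17.4% fell. The median log2 fold change of the neighbours was −0.21, against −0.08 for the chromosome 1 genes, −0.01 for all tested genes and −0.04 for the 8 members in the cluster. The number called was 4 without untreated replicate 1 and 5 without resistant replicate 1. On the side of S100A10, THEM4, a mitochondrial thioesterase, fell from 29 and 28 CPM to 13.1 and 17.6 CPM (log2 fold change −0.89, SE 0.21, adjusted p = 0.00901). TDRKH, a piRNA pathway protein, did not pass (adjusted p = 0.440). On the side of S100A1, CHTOP, an mRNA export factor, and ILF2, a subunit of an RNA-binding complex, fell by 0.62 (SE 0.15, adjusted p = 0.0108) and 0.89 (SE 0.18, adjusted p = 0.00377) on the log2 scale. SNAPIN, between them, did not pass (−0.14, adjusted p = 0.607). The call of CHTOP ended when either replicate 1 was dropped (adjusted p = 0.0826 for untreated and 0.0685 for resistant).

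Further out, TUFT1, tuftelin, was the riser, from 14.8 and 16.2 CPM to 36.8 and 37.2 CPM (log2 fold change 1.26, SE 0.18, adjusted p = 8.22e-04). CGN, the tight junction protein cingulin, fell from 5.17 and 10.7 CPM to 0.483 and 1.63 CPM (log2 fold change −2.89, SE 0.58, adjusted p = 0.00671). It ranged from −2.26 without resistant replicate 1 to −4.02 without resistant replicate 2, and was −2.28 without untreated replicate 2. PSMB4, a proteasome subunit, fell by 0.63 on the log2 scale (SE 0.16, adjusted p = 0.0145), and this call also ended when either replicate 1 was dropped (adjusted p = 0.127 and 0.0930). Along the gene order, log2 fold changes of the S100 genes lay on both sides of 0. S100A7, S100A7A, S100A8 and S100A12 were not tested and are left out of this order. Among the tested S100 genes it began with S100A10 at 0.34 and S100A11 at −0.42. S100A9 at 3.61 came next, then S100A6, S100A5 and S100A4 (all below 0). S100A3 and S100A2 (above 0) and S100A16 (below) followed, and S100A14, S100A13 and S100A1 (above) came last.

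**Figure D4:**
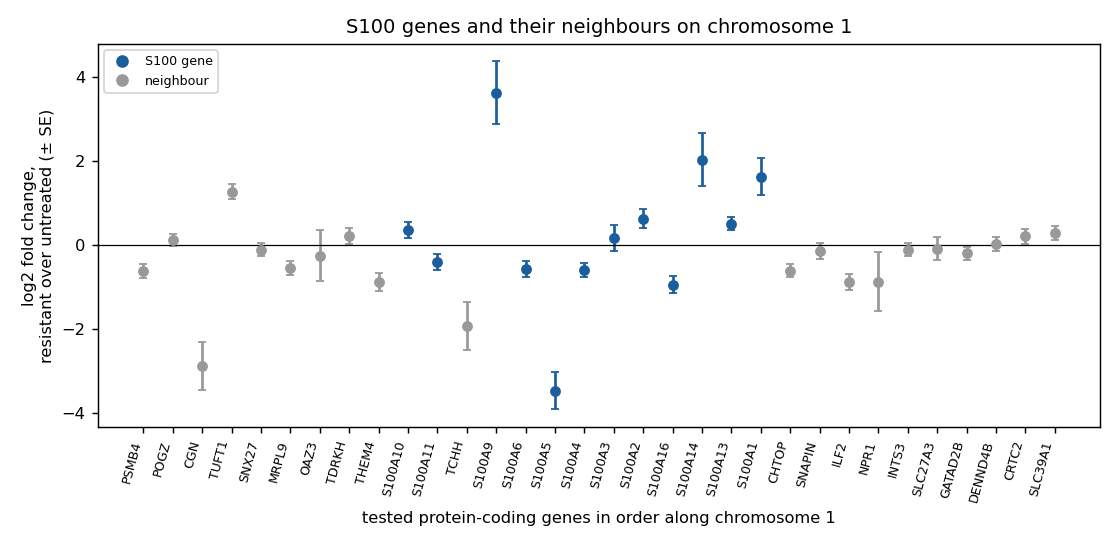
Log2 fold change (resistant over untreated, bars ± SE) of tested protein-coding genes in their order along chromosome 1, with 1 neighbour not drawn, S100 genes in blue and neighbours in grey. S100A9, S100A14 and S100A1 lie well above 0, S100A5 at −3.48 lies lowest, and S100A6 at −0.58 and S100A4 at −0.61 lie on either side of it.

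Genes whose proteins bind S100 proteins were taken from a list of 22, of which 19 were tested. Of these 3 rose, 6 fell and 10 did not pass, a share called of 47.4% beside 34% of all genes, with a median log2 fold change of −0.05 beside −0.01. MYH9, the nonmuscle myosin heavy chain bound by S100A4, rose from 676.5 and 604 CPM to 2259 and 1820 CPM (log2 fold change 1.67, SE 0.18, adjusted p = 1.36e-04). ANXA5, an annexin, rose from 68.5 and 75.4 CPM to 138 and 142 CPM (0.96, SE 0.15, adjusted p = 0.00130). The third riser was AHNAK, a very large scaffold protein bound by the S100A10 and annexin A2 complex (0.63, SE 0.17, adjusted p = 0.0144), picked out with its value known. Its call ended when untreated replicate 1 (adjusted p = 0.105) or resistant replicate 2 (adjusted p = 0.0754) was dropped.

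DLC1, a GTPase-activating protein bound by S100A10, showed the lowest log2 fold change of these genes. It had 11.3 and 10.5 CPM in untreated and 0.242 and 0.385 CPM in resistant libraries, 34.1-fold lower (−5.09, SE 0.40, adjusted p = 1.68e-05). CACYBP, the calcyclin-binding protein named for S100A6, fell from 197 and 144 CPM to 62.7 and 75.6 CPM (−1.30, SE 0.19, adjusted p = 8.53e-04). Expected counts of CACYBP and of ANXA2 were not whole, so their values are uncertain to the extent that reads were divided between genes. PPP5C, a phosphatase that S100 proteins bind, fell by 0.84 on the log2 scale (SE 0.16, adjusted p = 0.00270). The annexins that pair with S100A11 and S100A10 did not pass. ANXA1 had 1172 and 816 CPM in untreated and 1153 and 1372 CPM in resistant libraries (adjusted p = 0.215), and ANXA2 880.5 and 646 CPM against 711 and 852 CPM (adjusted p = 0.908). IQGAP1, a scaffold bound by S100P, had 366 and 362 CPM against 355 and 391 CPM (adjusted p = 0.888). The sign of ANXA2 and IQGAP1 turned when a single library was left out.

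EF-hand genes of other families moved both ways. Of 53 listed, 46 were tested, and 9 rose, 8 fell and 29 did not pass, a share called of 37% beside 34% of all genes. Their median log2 fold change was −0.04, and 9 (7 higher, 2 lower) were called without untreated replicate 1. PLS3, the actin-bundling protein plastin 3, rose from 44.7 and 46.1 CPM to 372 and 409 CPM (log2 fold change 3.10, SE 0.17, adjusted p = 1.46e-06). NUCB2, a calcium-binding Golgi and secreted protein, and STIM1, the calcium sensor of the endoplasmic reticulum, rose by 1.01 (SE 0.16, adjusted p = 0.00117) and 1.03 (SE 0.16, adjusted p = 0.0012). EHD2, an ATPase of caveolar necks, rose from 67.3 and 67.6 CPM to 169.5 and 122 CPM (1.11, SE 0.18, adjusted p = 0.00148). CAPN2, the large subunit of the protease m-calpain, fell from 652 and 503 CPM to 281 and 241 CPM (−1.15, SE 0.19, adjusted p = 0.00134). ACTN4, MYL6 and CALM3, the 3 of the list with the highest mean CPM (not per base) among those that did not pass, had log2 fold changes of 0.35, 0.31 and 0.28 (adjusted p = 0.131, 0.177 and 0.209).

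**Figure D5:**
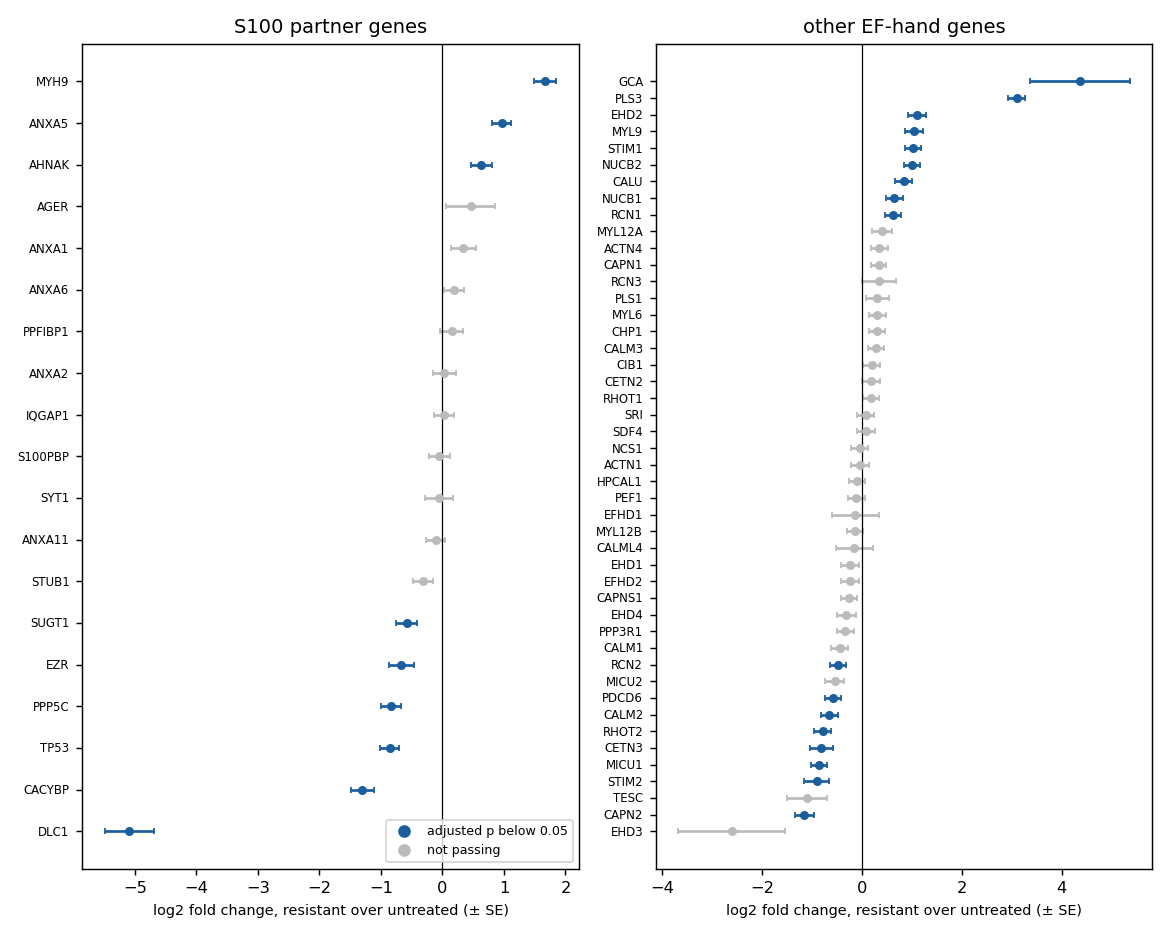
Log2 fold change (resistant over untreated, bars ± SE) of the 19 tested S100 partner genes and the 46 tested other EF-hand genes, blue where the adjusted p was below 0.05 and grey elsewhere. Most genes lie within 1 of 0, with DLC1 at −5.09 and PLS3 at 3.10 among the exceptions.

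The profiles most like those of CALB2 and S100A14, the members with the largest absolute log2 fold changes, were sought among genes with a mean of at least 10 CPM. Likeness was the root mean square distance between log2 CPM centred over the 4 libraries, so it mostly follows the difference between the groups, and it has no test. For CALB2 the nearest of 9805 genes were SNCG, gamma-synuclein (distance 0.16), TCF7, a transcription factor of the WNT pathway (0.26), and LTBP2, a matrix protein (0.31). SNCG had 34.9 and 40.4 CPM in untreated and 1.41 and 0.977 CPM in resistant libraries. TCF7 had 504 and 531 CPM against 17.1 and 15 CPM. LTBP2 had 23.7 and 15.8 CPM against 0.690 and 0.266 CPM. For S100A14 the nearest were CLDN11, a claudin (0.12), H2AC6, a histone gene (0.16), and MEIS2, a homeobox factor (0.17). Their log2 fold changes were 1.64, 1.48 and 1.77, below the 2.02 of S100A14. With 12, 5, 26 and 33 counts S100A14 is close to the floor, and the prior count of 2 draws its profile toward 0. CLDN11 had 283 and 147 CPM in untreated and 702 and 639 CPM in resistant libraries.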

How the data were processed

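Polyadenylated RNA of MIA-PaCa2 cells was sequenced in 2 untreated and 2 AMG510-resistant libraries, grouped by sample title. Each deposited table lists expected counts for genes without scaling, as its file header names them. Per the submitters' processing notes the tools were STAR 2.7.2b and RSEM 1.3.1 and the build GRCh37. The annotation release and strand setting are not given in the sources used here. Libraries held 30146559 to 38052558 expected counts, and these were rounded before testing. Symbols came from a gene name table (39538 of 57773 IDs matched). GENCODE 29, of another build, gave only gene order, overlaps, transcript lengths and copies (BLAST, at least 90% identity over 100 bases).

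Groups were compared with edgeR 4.0.16 (R 4.3.3): filterByExpr, TMM factors, a robust quasi-likelihood F-test, and Benjamini-Hochberg adjustment over all 16090 tested genes. A gene was called below 0.05. Standard errors are the absolute log2 fold change divided by the square root of F. Profiles for likeness used log2 CPM with a prior count of 2. The test was checked on simulated counts. The members and lists (8 lists, 126 symbols, PECAM1 without a matching ID) were chosen with earlier results of these data known. Named genes were all members, tested S100 relatives, up to 5 called partner or EF-hand genes by smallest adjusted p and 3 not called by highest level, the 3 nearest neighbours on each side with up to 6 called ones, and the 3 nearest profiles of 2 members, with AHNAK and the tested cell type markers added after their values were seen. A neighbour that this rule names is not reported here. Other settings tried were scaling by RLE or upper quartile, leaving out the filter, a minimum of 1 CPM in 2 libraries, DESeq2 1.42.0, limma-voom (limma 3.58.1), a replicate block, a threshold of 0.01, each library left out in turn, and the median transcript length.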

Additional observations from a re-analysis of the deposited data

How the results depend on the processing

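With a library left out the number of genes called was 2832 to 5041 (5463 with all), of members 1 to 5 (7), of S100 partners 6 to 10 (9), of other EF-hand genes 9 to 16 (17) and of chromosome 1 neighbours 4 to 8 (8). A threshold of 0.01 left 2832 genes, 2 members, 10 EF-hand genes and 4 neighbours. Under the other alternatives these counts stayed within 1.5 times. With the replicate number as a block 5275 genes were called, and S100A2 (adjusted p = 0.0592) and S100A1 (adjusted p = 0.0611) were not. The labels tie the numbers to nothing shared, and replicate 1 minus replicate 2 had a correlation of −0.0604 between the groups over genes. Median in place of longest transcript length lowered the share held by S100A4 and S100A6 from 67.5% to 60.8%.

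Of 62 genes with a test, 8 changed sign with a library left out, none of which was called with all libraries: log2 fold changes ranged from −0.18 to 0.30 for ANXA2, −0.04 to 0.12 for IQGAP1, −2.82 to 0.35 for MSLN, −0.88 to 0.02 for KRT19, −0.58 to 0.04 for EPCAM, −0.26 to 0.68 for CDH1, −0.33 to 1.49 for CD68 and −0.26 to 0.77 for VWF. CDH5 ranged from −3.06 to −0.19 and was called with the block (adjusted p = 0.0485) and without resistant replicate 1 (adjusted p = 6.09e-07). CD68 was called without resistant replicate 2 (adjusted p = 8.56e-05), and TUBB3 with upper-quartile scaling (adjusted p = 0.0453). S100A14 was not called by DESeq2 (adjusted p = 0.107). The causes were not tested. With 2 libraries a group, small differences may be missed, and S100P, S100A14 and S100A9 are limited by depth.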
